A study of Mus musculus with 12 samples.

Results

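The genes Ttr, Folr1, Kcne2, Kcnj13, Slc4a5, Prr32, Clic6, Kl, Aqp1 and Col8a1 are known for strong expression in the choroid plexus and were followed across basal forebrain and cerebral cortex of mice. They were taken by name: every array probe that the scanner files label with 1 of these symbols was used, which gave 14 probes for 10 genes, of 56568 probes and 37306 gene names in all. Measured values played no part in finding the probes, but the list was drawn up with earlier results of these data known. The choroid plexus is a fringe of epithelium over a core of leaky capillaries that hangs into each brain ventricle. It secretes cerebrospinal fluid by moving ions, bicarbonate and water across its epithelial cells, and it passes carrier proteins and vitamins into that fluid. It belongs neither to the basal forebrain nor to the cortical sheet but lies against both.

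The study concerned gene loss in cholinergic neurons. DKO mice carried ChatCre, in which the Chat promoter drives Cre, together with a floxed allele, and were PS2-/-, so that Psen2 is absent from every cell. Control (Con) mice were Cre-negative and PS2+/-, so they had 1 working copy of Psen2, and they carried the same floxed allele as the DKO mice. All mice were 2 months old and labelled male. They were killed by cervical dislocation, and basal forebrain and cortex were dissected and snap-frozen. Each genotype had 3 mice and each mouse gave both regions, which makes 4 groups of 3 arrays: DKO basal forebrain, Con basal forebrain, DKO cortex and Con cortex. The labels give whole tissue pieces, so fewer choroid plexus cells and less RNA per cell cannot be told apart in any value below.

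On the 12 arrays 68.9% to 75% of probes were well above background and arrays of a group correlated at 0.985 to 0.995. A level below is the log2 intensity of a gene's brightest probe minus the 75th percentile of its array, so 0 is that percentile and levels of different genes are not set against each other. Psen2 checked the labels, with levels of -1.86 to -1.25 in DKO basal forebrain against 0.25 to 0.42 in Con basal forebrain, and of -1.70 to -1.59 in DKO cortex against 0.42 to 0.50 in Con cortex. Although every mouse is labelled male, Xist, the RNA of the inactive X chromosome in females, had levels of -2.32 to -1.53 in both pieces of DKO mice 1 and 3, against -9.14 to -6.48 on the other 8 arrays. Slide 1 carried basal forebrain of all 6 mice together with cortex of DKO mice 1 and 2, and slide 2 carried the other cortex arrays, those of DKO mouse 3 and of the 3 Con mice. In Con mice, region and slide therefore cannot be told apart by the arrays of that genotype alone.

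Choroid plexus genes differed between the pieces above all by region. In DKO mice 9 of the 10 genes were lower in basal forebrain than in cortex and Clic6 was higher, and all 10 passed the test (limma, adjusted p under 0.05 over all genes), where 39.9% of all 25916 genes tested passed, 20.6% as lower and 19.3% as higher. In Con mice 8 were lower, Clic6 was higher and Aqp1 did not pass, where 49% of 26592 genes passed, 30.5% as lower and 18.5% as higher. Slc4a5 and Prr32 are among the lower genes, but they had no basal forebrain signal above background and were tested through their cortex signal alone. Kcne2 was above background on 2 of 3 DKO basal forebrain arrays, so in DKO mice it too entered the test through cortex. The median difference of the 10 genes, with Slc4a5 and Prr32 set to their bound in basal forebrain, was -3.95 in DKO mice and -2.77 in Con mice on the log2 scale. Over all genes tested the median was -0.04 in DKO mice and -0.09 in Con mice.

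**Figure D1:**
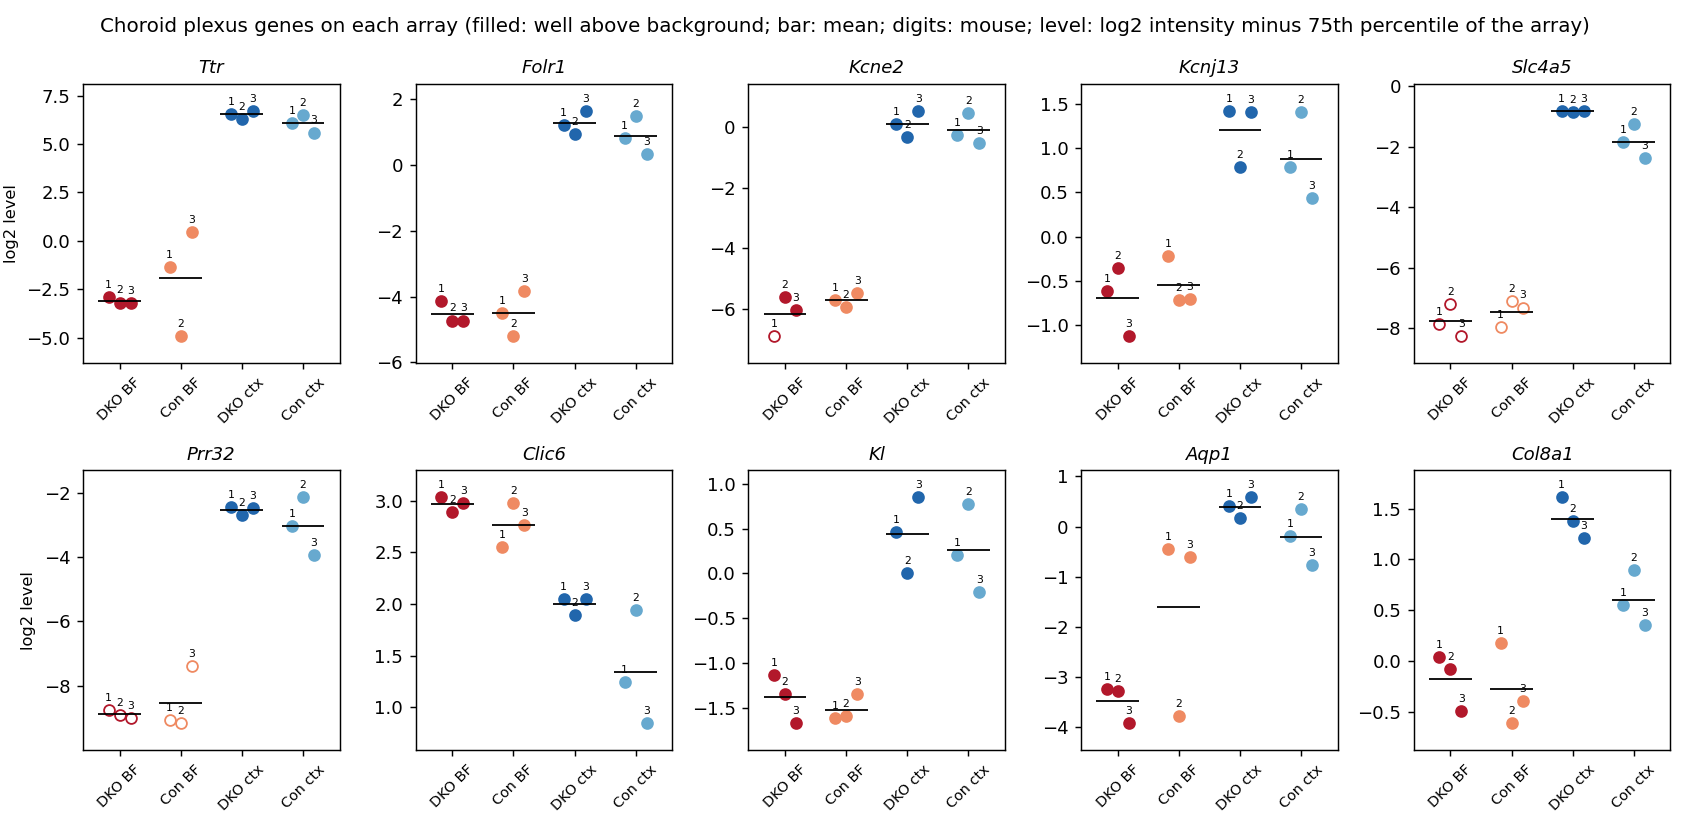
Level of each choroid plexus gene (vertical axis, log2 intensity of the brightest probe minus the 75th percentile of its array) on the 12 arrays, grouped as DKO basal forebrain, Con basal forebrain, DKO cortex and Con cortex (BF, basal forebrain; ctx, cortex). Filled points were well above background, open points were not, bars are means of 3 mice and the digits number the mice; Slc4a5 and Prr32 were above background on none of the 6 basal forebrain arrays, and Clic6 is the gene whose basal forebrain points lie higher.

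Ttr encodes transthyretin, the carrier of thyroxine and of retinol-binding protein that choroid plexus epithelium secretes into cerebrospinal fluid. Its probe, at chr18:20828519-20828577 on the plus strand of mm9, had levels of -2.92, -3.19 and -3.23 in DKO basal forebrain, against 6.55, 6.32 and 6.73 in DKO cortex. In Con mice Ttr had -1.36, -4.92 and 0.47 in basal forebrain, against 6.08, 6.53 and 5.60 in cortex. No basal forebrain array came near any cortex array, and the 3 Con basal forebrain arrays were far apart from each other. The difference between basal forebrain and cortex was -9.65 (SE 0.93, adjusted p = 1.03e-05) in DKO mice, an 804-fold lower intensity, and -8.01 (SE 0.93, adjusted p = 4.42e-05) in Con mice, a 257-fold lower one. The Con value moved with single arrays, to a 91.8-fold difference (-6.52) without Con basal forebrain 2 and a 592-fold one (-9.21) without Con basal forebrain 3, and it passed in both cases. A second Ttr probe, at chr18:20832612-20832672, had levels of -7.88 to -6.93 in DKO basal forebrain and 1.85 to 3.14 in DKO cortex. It had -5.91, -9.14 and -4.25 in Con basal forebrain and 1.60 to 2.94 in Con cortex, and it kept the order of the 3 Con basal forebrain arrays. In basal forebrain that probe was above background on none of the DKO arrays and on 2 of the Con arrays.

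Folr1, the folate receptor that carries 5-methyltetrahydrofolate across this epithelium, had levels of -4.15, -4.73 and -4.73 in DKO basal forebrain, against 1.22, 0.95 and 1.65 in DKO cortex (probe at chr7:109006846-109006905, minus strand). Con basal forebrain had -4.49, -5.20 and -3.84 against 0.82, 1.48 and 0.33 in Con cortex. The regions were cleanly apart in both genotypes, by -5.81 (SE 0.35, adjusted p = 3.08e-07) in DKO mice and -5.38 (SE 0.35, adjusted p = 5.96e-07) in Con mice. A second Folr1 probe, at chr7:109016972-109017031, was above background on all 6 cortex arrays, at -3.57 to -3.22 in DKO and -4.17 to -3.17 in Con cortex. On that probe the basal forebrain levels were -7.12 to -6.83 in DKO and -9.13 to -7.37 in Con mice, above background on none of the 6 arrays.

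Among the ion channels, Kcne2 encodes an accessory subunit of potassium channels in the apical membrane. Its levels were -6.90, -5.62 and -6.04 in DKO basal forebrain, with 2 of 3 arrays above background, against 0.09, -0.34 and 0.54 in DKO cortex (probe at chr16:92298155-92298214, plus strand). Con basal forebrain had -5.71, -5.95 and -5.48 against -0.25, 0.46 and -0.53 in Con cortex. Kcne2 was lower in basal forebrain by a log2 difference of -6.29 (SE 0.34, adjusted p = 1.46e-07) in DKO mice and of -5.61 (SE 0.34, adjusted p = 3.72e-07) in Con mice. Kcnj13 encodes the inward rectifier potassium channel Kir7.1 and differed less. It had -0.61, -0.35 and -1.12 in DKO basal forebrain against 1.42, 0.79 and 1.41 in DKO cortex, and -0.22, -0.71 and -0.70 in Con basal forebrain against 0.78, 1.40 and 0.44 in Con cortex (probe at chr1:89282991-89283050, minus strand). The regions did not overlap, and the differences were -1.90 (SE 0.27, adjusted p = 0.000177) in DKO mice and -1.42 (SE 0.27, adjusted p = 0.0013) in Con mice.

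Slc4a5, the electrogenic sodium bicarbonate cotransporter NBCe2, was above background on none of the 6 basal forebrain arrays and on all 6 cortex arrays (probe at chr6:83254819-83254878, plus strand). The DKO basal forebrain values of -7.84, -7.21 and -8.25 are therefore only limits, set against -0.83, -0.86 and -0.81 in DKO cortex. Likewise Con basal forebrain had -7.95, -7.11 and -7.31 against -1.85, -1.26 and -2.38 in Con cortex. The floor was the dimmest signal called well above background on each basal forebrain array. By it, Slc4a5 was at least 54.8-fold lower in basal forebrain in DKO mice and at least 31.3-fold lower in Con mice. The limma fit used the values below background (adjusted p = 4.66e-08 in DKO and 2.72e-07 in Con mice) and does not test these bounds. A second Slc4a5 probe, at chr6:83249444-83249503, also was above background on the cortex arrays, with -4.18 to -3.78 in DKO and -5.03 to -4.26 in Con cortex, and on none of the 6 basal forebrain arrays.

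Aqp1 encodes the water channel of the apical membrane, which is also the water channel of red cells and of some endothelia. Its levels were -3.24, -3.27 and -3.91 in DKO basal forebrain, against 0.40, 0.16 and 0.58 in DKO cortex (probe at chr6:55298480-55298539, plus strand). In Con basal forebrain mice 1 and 3 had -0.45 and -0.61 and mouse 2 had -3.77, against -0.18, 0.35 and -0.77 in Con cortex. Of the 3 Con pieces of basal forebrain, only that of mouse 2 lay with the DKO pieces, and the other two overlapped Con cortex. Aqp1 was lower in basal forebrain by -3.85 (SE 0.67, adjusted p = 0.000904) in DKO mice, a 14.4-fold difference. In Con mice the difference was -1.40 (SE 0.67, 95% interval -2.87 to 0.06, adjusted p = 0.1). It passed when Con basal forebrain 1 (-1.98, adjusted p = 0.0404) or 3 (-1.90, adjusted p = 0.0427) was left out, and it was -0.32 without Con basal forebrain 2.

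Clic6, a member of the chloride intracellular channel family, ran the other way. Its levels were 3.03, 2.89 and 2.98 in DKO basal forebrain against 2.05, 1.89 and 2.05 in DKO cortex (probe at chr16:92541363-92541422, plus strand). Con basal forebrain had 2.55, 2.98 and 2.76 against 1.24, 1.94 and 0.85 in Con cortex. All basal forebrain arrays lay above all cortex arrays, by 0.97 (SE 0.21, adjusted p = 0.00335) in DKO mice and 1.42 (SE 0.21, adjusted p = 0.000228) in Con mice. The probes of Clic6 and Kcne2 lie on the same strand of chromosome 16 of mm9, and their region differences had opposite signs.

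Kl encodes klotho, the co-receptor for FGF23, which the epithelium also sheds into cerebrospinal fluid. Its levels were -1.14, -1.35 and -1.67 in DKO basal forebrain against 0.46, 0.00 and 0.85 in DKO cortex (probe at chr5:151796302-151796361, plus strand). Con basal forebrain had -1.62, -1.60 and -1.35 against 0.21, 0.78 and -0.21 in Con cortex. Kl was lower in basal forebrain by -1.83 (SE 0.25, adjusted p = 0.000162) in DKO mice and by -1.79 (SE 0.25, adjusted p = 0.000183) in Con mice. Its second probe, at chr5:151789486-151789545, was dim and was above background on 3 DKO cortex arrays and 2 Con cortex arrays.

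Col8a1 encodes a chain of type VIII collagen, a network collagen of basement membranes. It had 0.04, -0.08 and -0.49 in DKO basal forebrain against 1.61, 1.38 and 1.21 in DKO cortex, and 0.18, -0.61 and -0.40 in Con basal forebrain against 0.55, 0.89 and 0.35 in Con cortex (probe at chr16:57627033-57627092, minus strand). The regions were apart in both genotypes, by -1.58 (SE 0.21, adjusted p = 0.00012) in DKO mice and -0.87 (SE 0.21, adjusted p = 0.00533) in Con mice. Prr32, which encodes a proline-rich protein, was above background on the 6 cortex arrays and on none of the 6 basal forebrain arrays (probe at chrX:42445458-42445517, plus strand). Its cortex levels were -2.46, -2.71 and -2.49 in DKO and -3.05, -2.15 and -3.95 in Con mice. By the same floor, Prr32 was at least 16.6-fold lower in basal forebrain in DKO mice and at least 13.4-fold lower in Con mice. Here too the limma fit used the values below background (adjusted p = 1.75e-06 in DKO and 5.92e-06 in Con mice) and does not test the bounds.

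**Figure D2:**
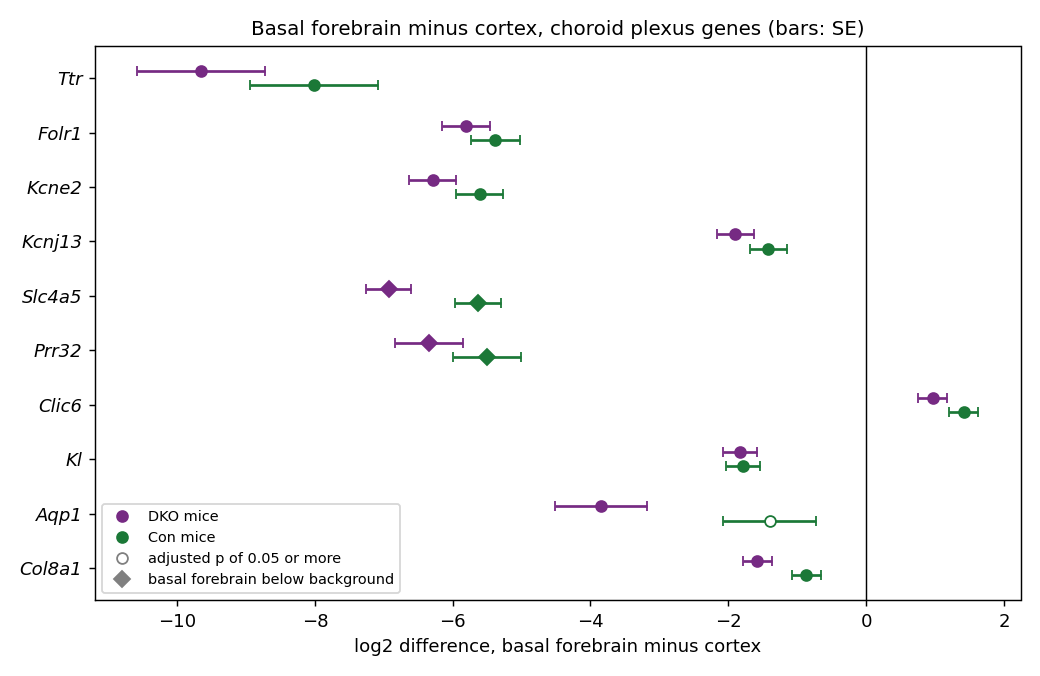
Difference between basal forebrain and cortex for each gene (horizontal axis, log2, basal forebrain minus cortex), with DKO mice above Con mice in each row and SE as bars (3 mice per group). Filled symbols passed at an adjusted p under 0.05, which left out Aqp1 in Con mice, and diamonds mark the fitted values of Slc4a5 and Prr32, whose basal forebrain signal was below background.

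Slide bears on the Con comparison. Within slide 1, where DKO basal forebrain 1 to 3 and DKO cortex 1 and 2 sit together, all 10 genes passed in the same directions as with both slides, where 36% of all genes passed. With slide as a block, 10 of 10 passed in DKO mice and 6 of 10 in Con mice, in whom the slide effect is read from DKO cortex alone. Each of these counts includes Slc4a5 and Prr32, whose basal forebrain values were below background. Of all genes 37.8% passed with slide as a block in DKO mice and 10.8% in Con mice. Kcnj13 (-1.11, adjusted p = 0.196), Kl (-1.16, adjusted p = 0.111) and Col8a1 (-1.16, adjusted p = 0.0813) were the genes that no longer passed in Con mice.

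Promoters are shown for genes that were lower in basal forebrain than in cortex. Whether these genes share regulation was not tested. Windows of 250 bases before a start in the RefSeq table for GRCm38.p6 were used for 7 of the 10 genes. Ttr, Folr1 and Clic6 had no window here, and the motif counts do not cover them. The 7 genes were Kcne2 (with 2 starts), Kcnj13, Slc4a5, Prr32, Kl, Aqp1 and Col8a1. Below are the 250 bases before the start of 4 of them, each 5′ to 3′ on the strand of its gene. Capitals mark TATAAA, read on either strand, and the 2 genes with a match are among those shown.
Kcnj13, chr1:87394730-87394979, minus strand: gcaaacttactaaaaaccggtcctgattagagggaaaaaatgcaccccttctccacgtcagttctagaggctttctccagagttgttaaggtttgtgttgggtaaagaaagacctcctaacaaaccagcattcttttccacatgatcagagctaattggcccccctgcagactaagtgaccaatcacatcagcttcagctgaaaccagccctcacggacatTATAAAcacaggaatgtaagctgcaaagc
Kcne2, first start, chr16:92292139-92292388, plus strand: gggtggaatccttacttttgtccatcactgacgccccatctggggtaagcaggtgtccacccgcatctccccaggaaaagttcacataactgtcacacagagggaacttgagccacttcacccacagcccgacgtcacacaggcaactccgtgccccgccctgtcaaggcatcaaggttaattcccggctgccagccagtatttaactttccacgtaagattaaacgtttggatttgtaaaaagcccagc
Slc4a5, chr6:83237125-83237374, plus strand: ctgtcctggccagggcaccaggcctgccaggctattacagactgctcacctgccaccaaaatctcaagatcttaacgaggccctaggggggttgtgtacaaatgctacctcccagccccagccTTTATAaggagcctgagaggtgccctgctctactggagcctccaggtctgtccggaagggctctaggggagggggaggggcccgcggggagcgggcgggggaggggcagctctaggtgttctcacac
Prr32, chrX:45090654-45090903, plus strand: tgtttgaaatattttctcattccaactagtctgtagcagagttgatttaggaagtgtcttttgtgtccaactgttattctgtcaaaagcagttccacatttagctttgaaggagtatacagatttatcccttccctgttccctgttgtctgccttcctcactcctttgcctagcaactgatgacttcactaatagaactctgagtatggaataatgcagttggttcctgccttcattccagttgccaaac
In these windows 3 motifs were searched on both strands. TATAAA, the TATA box, begins 29 bases before the start in Kcnj13 and was found on the opposite strand of Slc4a5, with its leftmost base 127 bases before the start. It was found in 2 of the 7 genes and in 12.4% of 32851 windows of the same length in the table. TAATCC, the core letters read by OTX-type homeodomain proteins such as OTX2, which is needed to form and keep choroid plexus, were in none of the 7 genes and in 6.25% of all windows. GTAAACA, the core letters of forkhead proteins, were likewise in none of the 7 and in 3.17% of all windows. The motifs do not overlap in these windows.

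Other genes known from choroid plexus epithelium moved less uniformly than these 10. Of 30 such genes 28 were tested. In DKO mice 20 passed as lower in basal forebrain and 3 as higher, where 20.6% and 19.3% of all genes did. In Con mice 17 passed as lower and 5 as higher, where 30.5% and 18.5% of all genes did. The median difference of the 28 genes was -0.98 in DKO mice and -0.76 in Con mice. Those with the smallest p were the same 4 in both genotypes. Enpp2, which makes lysophosphatidic acid, fell by a log2 difference of 1.80 in DKO and 1.30 in Con basal forebrain relative to cortex (adjusted p = 6.95e-07 and 8.47e-06). Slc4a10, a sodium-dependent bicarbonate transporter also found in neurons, had -0.98 in DKO and -0.87 in Con mice (adjusted p = 9.59e-07 and 2.77e-06). Cldn2, a pore-forming claudin of leaky tight junctions, had -4.08 in DKO and -3.51 in Con mice (adjusted p = 2.51e-06 and 8.63e-06). In DKO basal forebrain Cldn2 was above background on 1 of 3 arrays, so its DKO difference rests in part on values below background. Steap1, a metalloreductase, had -3.52 in DKO and -3.10 in Con mice (adjusted p = 7.56e-06 and 2.11e-05). Higher in basal forebrain in both genotypes were Slc29a4, a monoamine transporter (1.07 in DKO and 1.04 in Con mice), Igf2, a growth factor also made by meninges (0.87 and 0.80), and Slc22a8, an organic anion transporter (0.62 and 0.49). Car12 (0.66) and Slc13a4 (0.68), a sulphate transporter, passed as higher in Con mice. These last 5 genes were named after their values were seen, and so was Otx2, which had -0.98 (adjusted p = 0.00464) in DKO and -0.46 (adjusted p = 0.102) in Con mice.

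Marker lists of neighbouring tissue describe what else differed between the pieces. Of all genes tested, 20.6% passed as lower and 19.3% as higher in basal forebrain in DKO mice. In Con mice 30.5% passed as lower and 18.5% as higher. The 10 striatal genes all passed as higher in basal forebrain in both genotypes, and 9 of 10 genes of cortical excitatory neurons passed as lower in each. Of 12 genes of the septum, preoptic area and hypothalamus 7 were higher and 1 lower in each genotype. Of 12 meningeal and stromal fibroblast genes 7 passed as higher and 0 as lower in DKO mice, and 8 as higher and 1 as lower in Con mice. Of 12 ependymal genes, which mark the cells that line the ventricle, 1 was higher and 2 lower in DKO mice, and 1 higher and 3 lower in Con mice. The ependymal median was 0.03 in DKO and -0.59 in Con mice. Of 10 genes of fenestrated and brain endothelium 1 was higher and 1 lower in DKO mice, and 3 higher and 2 lower in Con mice. Of 10 hippocampal genes 2 were higher and 4 lower in DKO mice, and 3 higher and 3 lower in Con mice. Of 10 thalamic genes 5 were higher and 1 lower in DKO mice, and 6 higher and 1 lower in Con mice. Of 10 erythroid genes none of the 8 tested passed in DKO mice, and 1 of the 7 tested, Slc4a1, passed as lower in Con mice.

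**Figure D3:**
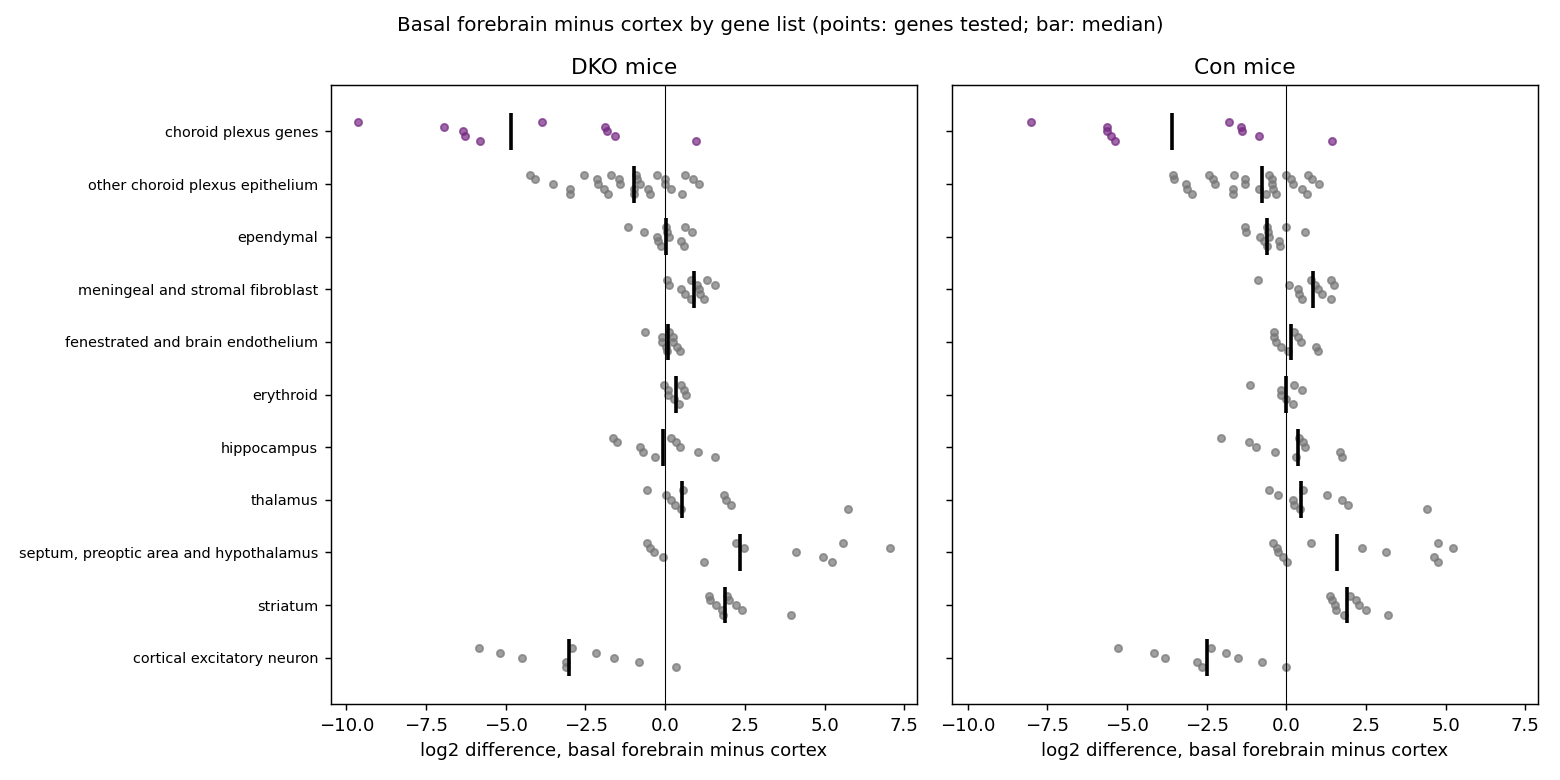
Differences between basal forebrain and cortex (horizontal axis, log2, basal forebrain minus cortex) in DKO mice, left, and Con mice, right, by gene list. Each point is a gene tested and the bar is the median of fitted values; choroid plexus genes reach further to the left than any other list, down to -9.65 in DKO and -8.01 in Con mice, and striatal genes lie to the right of 0.

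Mice of a group differed among themselves, and in cortex the choroid plexus genes did so in step. In Con cortex mouse 2 had the highest, mouse 1 the middle and mouse 3 the lowest level in 10 of 10 genes, an order shown by 23.8% of all genes above background there. The SDs of the 10 genes in Con cortex were 0.27 to 0.90, against a median of 0.09 over all genes. In DKO cortex mouse 3 was highest and mouse 2 lowest for Ttr, Folr1, Kcne2, Slc4a5, Clic6, Kl and Aqp1, that is 7 of 10, an order shown by 26.1% of all genes. Mouse 3 gave the only DKO cortex array on slide 2, so mouse and slide cannot be told apart for it. The SDs there were 0.02 for Slc4a5 to 0.44 for Kcne2, against a median of 0.17. Across the 6 cortex arrays the deviations from the group means were positively correlated in 45 of 45 pairs of genes, with a median Pearson r of 0.93 and the lowest, 0.43, between Col8a1 and Kcne2. These are descriptions over 6 arrays that share slides and scaling. Clic6 is part of this pattern: its deviations correlated at 0.97 with the mean of the other 9 genes in cortex, although it was the 1 gene that was higher in basal forebrain.

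In basal forebrain the agreement was looser. The deviations of the 7 genes above background on all 6 arrays had a median r of 0.36 over 21 pairs, of which 16 were positive, and the lowest was -0.85 between Aqp1 and Clic6. The SD of Ttr was 0.17 in DKO against 2.74 in Con basal forebrain, and that of Aqp1 was 0.38 in DKO against 1.87 in Con basal forebrain. Other genes spread the other way, with SDs of 0.65 in DKO against 0.23 in Con for Kcne2, 0.39 against 0.28 for Kcnj13 and 0.27 against 0.15 for Kl. The median SD over all genes was 0.14 in DKO and 0.16 in Con basal forebrain. In DKO basal forebrain 5 of the 7 genes above background on its 3 arrays (Ttr, Folr1, Kl, Aqp1 and Col8a1) were highest in mouse 1 and lowest in mouse 3, an order shown by 24.5% of all genes. In Con basal forebrain the 8 genes above background had 4 different orders. There mouse 3 was highest and mouse 2 lowest for Ttr, Folr1 and Kcne2, 3 of 8 (26.3% of all genes), and mouse 1 was highest and mouse 2 lowest for Kcnj13, Aqp1 and Col8a1, also 3 of 8 (11.8% of all genes). Clic6 was highest in mouse 2 and lowest in mouse 1, and Kl was highest in mouse 3 and lowest in mouse 1. The mean level of the 12 ependymal genes was -1.28, -2.45 and -1.30 in Con basal forebrain 1, 2 and 3, so that mouse 2 was low in these genes too. On the same 3 arrays the mean of the 10 cortical excitatory neuron genes was -0.63, -1.29 and -0.31, and that of the 10 striatal genes 3.91, 4.51 and 4.23. That of 12 septum, preoptic area and hypothalamus genes was 0.87, 0.01 and 0.36. The ependymal mean was lowest in mouse 2 of DKO basal forebrain as well (-1.01, -1.79 and -1.28). There Ttr had -2.92, -3.19 and -3.23, and Aqp1 -3.24, -3.27 and -3.91. The part of these other tissues in the Ttr and Aqp1 values was not tested.

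**Figure D4:**
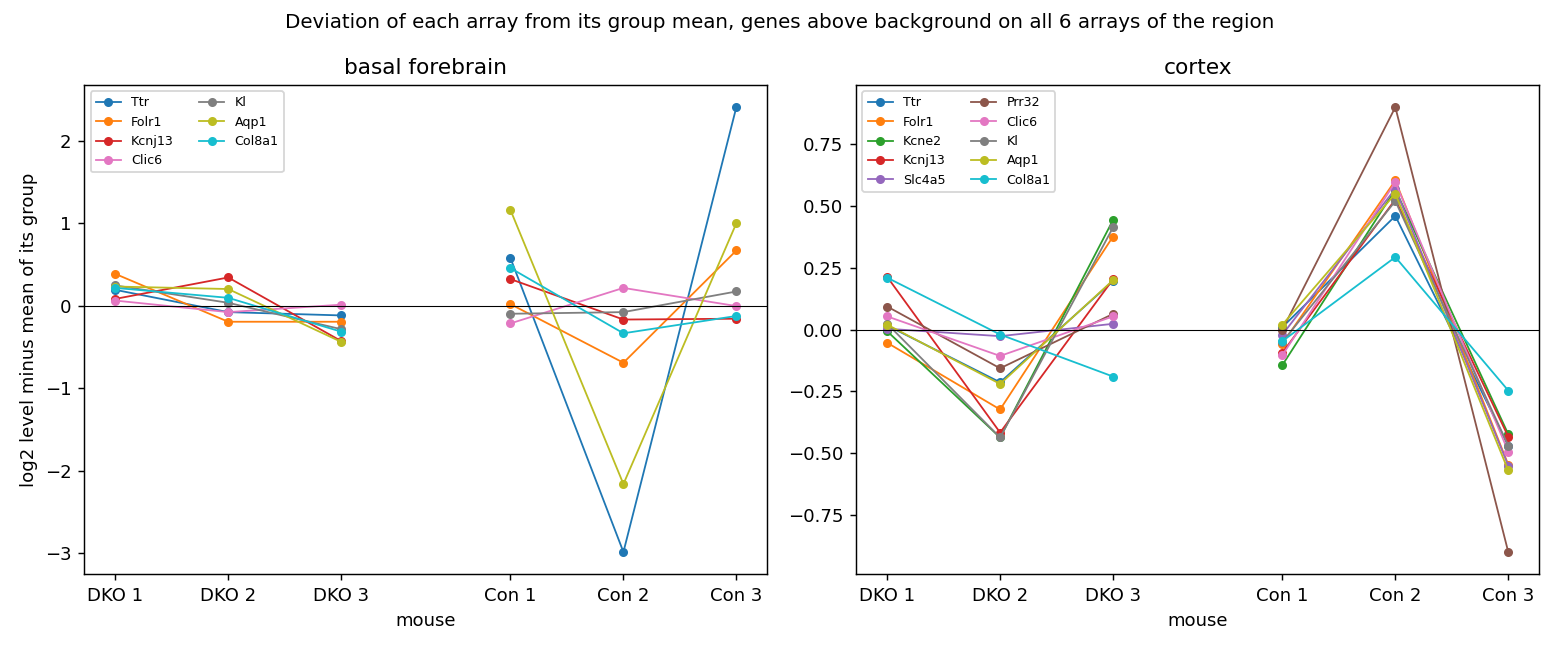
Deviation of each array from its group mean (vertical axis, log2) for mice 1 to 3 of DKO and Con, in basal forebrain (left, 7 genes above background on all 6 arrays) and cortex (right, 10 genes). Lines join the mice of a group for 1 gene and carry no order in time; in Con cortex all 10 genes peak in mouse 2, and in Con basal forebrain Ttr and Aqp1 dip in mouse 2.

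Within a mouse, the region difference held throughout for 9 of the 10 genes. Basal forebrain minus cortex was -9.47, -9.52 and -9.97 for Ttr in DKO mice 1, 2 and 3, and -7.44, -11.45 and -5.13 in Con mice 1, 2 and 3. For Aqp1 it was -3.64, -3.43 and -4.48 in the DKO mice, and -0.26, -4.11 and 0.17 in the Con mice. Con mouse 2 thus gave the basal forebrain piece with the least Ttr and the cortex piece with the most Ttr of its group. For Clic6 the difference was 0.93 to 1.00 in DKO and 1.05 to 1.91 in Con mice.

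The genes most like this set across arrays were ranked by their correlation with the mean standardised level of the 7 members above background on all 12 arrays, among 15814 genes. Steap1 came first (Pearson r 0.975), then Wfdc2, a secreted whey-acidic-protein-domain protein of epithelia (0.972), Oca2, a melanosome transporter (0.969), Smim22, a small membrane protein (0.969), and Cldn1, a tight-junction claudin (0.968). Of the 7 averaged members, 6 correlated at 0.89 to 0.98 with that mean and Clic6 at -0.66. When the deviations from the 4 group means were ranked instead, Steap1 (0.924), Esm1, a proteoglycan of endothelium (0.918), Cldn1 (0.907), Wfdc2 (0.906) and Smim22 (0.904) led. Esm1 alone of these was higher in basal forebrain in Con mice (1.01, adjusted p = 0.00175), and it had 0.48 (adjusted p = 0.0733) in DKO mice. The points are the 12 arrays, which share mice, slides and scaling, and no test is attached to the ranks.

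Between genotypes, no choroid plexus gene passed in either region. In basal forebrain 8 of the 10 could be tested, 0 of 8 passed (8 of 26102 genes did, 0.0306%), and 3 of the 8 differences were above 0 (51.1% of all genes), with a median of -0.09. None of the 8 had an unadjusted p under 0.05, as 4.39% of all genes had. Aqp1 differed most, with -3.24, -3.27 and -3.91 in DKO against -0.45, -3.77 and -0.61 in Con basal forebrain, a difference of -1.86 (SE 0.84, 95% interval -3.86 to 0.14, adjusted p = 0.973). The groups overlapped only through Con mouse 2. Without that array the Aqp1 difference was -2.94 (adjusted p = 0.0253), where 24 of 26285 genes passed. Leaving out the array that made the overlap cannot decide whether Aqp1 differs by genotype. Ttr had a difference of -1.18 (SE 1.21, 95% interval -4.04 to 1.68, adjusted p = 0.973), and without Con mouse 3 it was 0.03. The remaining 6 lay between -0.48 for Kcne2 (95% interval -1.30 to 0.35) and 0.20 for Clic6 (-0.07 to 0.47). Slc4a5 and Prr32 were below background in both genotypes and give no difference. Of the other choroid plexus genes 0 of 27 passed, with a median of 0.06.

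In cortex all 10 genes were higher in DKO than in Con mice by their means, where 41.5% of 25798 genes had a difference above 0. Their median difference was 0.48 against -0.05 over all genes, and 0 of 10 passed (3 of 25798 genes did, 0.0116%). The 10 genes varied in step among the cortex arrays, so their shared sign does not count as 10 separate observations. An unadjusted p under 0.05 was reached by Slc4a5, Col8a1 and Clic6, 3 of 10, and by 18.9% of all genes. Slc4a5 and Col8a1 were the 2 genes whose groups did not overlap. Of all 25798 genes tested, 8.86% had every DKO array above every Con array. Slc4a5 had -0.83, -0.86 and -0.81 in DKO against -1.85, -1.26 and -2.38 in Con cortex, a difference of 1.00 (SE 0.25, 95% interval 0.42 to 1.58, adjusted p = 0.261). Its second probe was also apart, with -4.17, -4.18 and -3.78 in DKO and -4.91, -4.26 and -5.03 in Con cortex. Col8a1 had 1.61, 1.38 and 1.21 in DKO against 0.55, 0.89 and 0.35 in Con cortex, a difference of 0.80 (SE 0.16, 95% interval 0.44 to 1.17, adjusted p = 0.261). Clic6 had 0.66 (95% interval 0.10 to 1.21, adjusted p = 0.261), Aqp1 0.59 (-0.02 to 1.19) and Ttr 0.47 (-0.03 to 0.97). Prr32 (0.50), Folr1 (0.39), Kcnj13 (0.34), Kcne2 (0.20) and Kl (0.18) had groups that overlapped.

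The cortex comparison depends on single arrays. Without the cortex array of DKO mouse 3, which is the DKO cortex array on slide 2, Slc4a5 (0.99, adjusted p = 0.0306) and Col8a1 (0.90, adjusted p = 0.00501) passed, but so did 9759 genes in all, and the remaining DKO and Con arrays then sit on different slides. On slide 2 alone, which sets DKO mouse 3 against the 3 Con mice, Slc4a5 had 1.02, Col8a1 0.61 and Ttr 0.67, and 0 of 10 passed. With DKO mouse 2 alone, the DKO mouse without Xist signal, Slc4a5 had 0.97 and Col8a1 0.79, while Kcne2 (-0.23), Kcnj13 (-0.08) and Kl (-0.26) were below 0. Erythroid genes moved with the same groups: 8 of 8 tested were higher in DKO cortex with no overlap, by a median of 1.85, and their mean level was at least 2.82 in DKO against at most 1.98 in Con cortex. In basal forebrain they were 8 of 8 higher, by a median of 2.20, and their mean level was 3.09 to 4.75 in DKO against 1.55 to 1.85 in Con mice. None of them passed in either region, and their part in the values of the choroid plexus genes, of which red cells carry Aqp1, was not tested. Of the other choroid plexus genes 22 of 28 were higher in DKO cortex, 0 passed, and the median was 0.21, with Abca4, a retinoid flippase, at 0.86 (adjusted p = 0.158) and Trpv4, a calcium channel of the apical membrane, at 0.58 (adjusted p = 0.261). Of 12 ependymal genes 1 was higher and 11 were lower by their means in DKO cortex, with a median of -0.26.

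**Figure D5:**
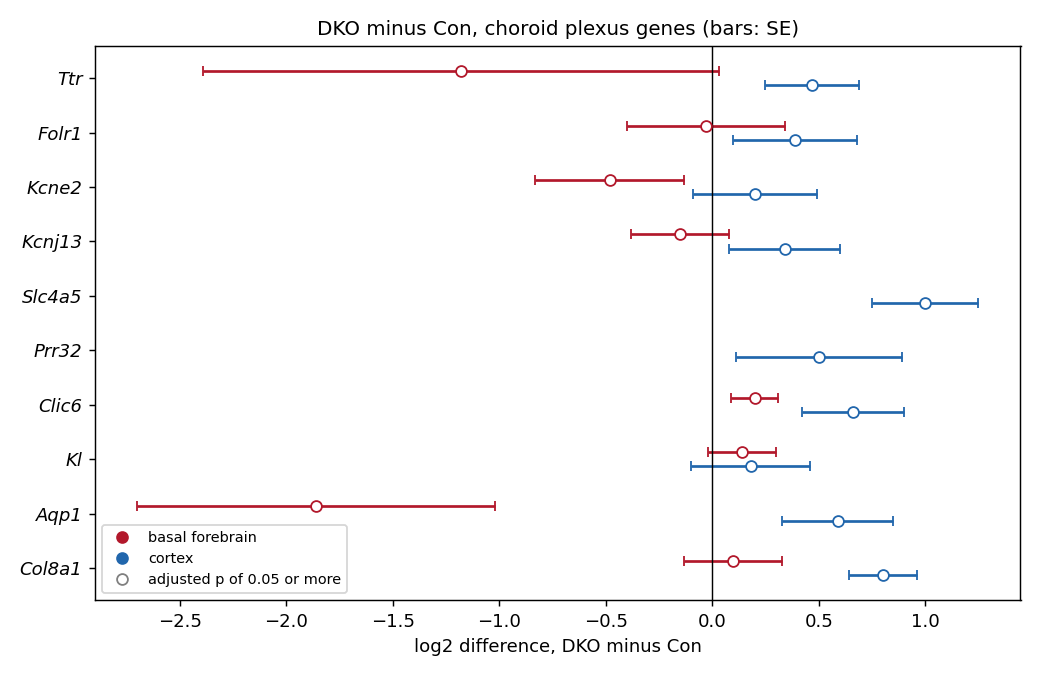
Difference between DKO and Con for each gene (horizontal axis, log2, DKO minus Con), with basal forebrain above cortex in each row and SE as bars (3 mice per group). No point passed at an adjusted p under 0.05; all 10 cortex points lie right of 0, Aqp1 and Ttr in basal forebrain have the widest bars, and Slc4a5 and Prr32 have no basal forebrain point.

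Whether DKO and Con differed by another amount in basal forebrain than in cortex was tested as the interaction of genotype and region. The interaction is the DKO minus Con difference of basal forebrain less that of cortex. None of the 10 genes passed, and 0 of 26959 genes (0%) did, where 2254 had an unadjusted p under 0.05 (8.36%). Of the 10, Slc4a5, Aqp1 and Col8a1 had an unadjusted p under 0.05, and for Slc4a5 it rests on basal forebrain values below background. Of the 8 choroid plexus genes with signal in both regions all were below 0, with a median of -0.58, where 58.3% of all genes were above 0. These genes varied in step in cortex, so the 8 signs are not separate observations. Aqp1 had -2.45 (SE 0.95, 95% interval -4.52 to -0.38, adjusted p = 0.562), Ttr -1.64 (SE 1.32, adjusted p = 0.642) and Col8a1 -0.70 (SE 0.30, adjusted p = 0.562). Kl had the smallest, -0.04 (SE 0.36). Without Con basal forebrain 2, Aqp1 passed with 11 genes in all, at -3.53 (adjusted p = 0.00497). That array is again the one through which the Aqp1 groups overlapped in basal forebrain, so this fit cannot decide the question. The genotype comparisons share their arrays with the region comparisons, so these values are not independent of the region differences above.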

How the data were processed

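Both brain regions of 6 mice were measured in 1 colour on 12 SurePrint G3 Mouse arrays of Agilent (design GE v2). Per the file headers, Agilent Feature Extraction 10.7.1.1 (protocol GE1_107_Sep09) gave a processed intensity per spot, background-subtracted and detrended, with probe positions in mm9. The series table that the authors deposited holds the same raw intensity (99.998% of values equal within 0.01 log2). It also holds the authors' normalized log2 values, whose sorted values are identical on all arrays. These log2 values served as an alternative, and 12 flag columns were not used. Of 56605 probes, 37 lacked an unflagged spot on at least 1 array and were dropped. No spot was saturated.

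Log2 intensity minus the 75th percentile of the array was compared, with each gene read from its brightest probe. Genes were tested only if that probe was flagged by the scanner as well above background throughout 1 or more of the groups compared. Differences were tested with limma 3.58.1 in R 4.3.3 (lmFit, eBayes with trend), with Benjamini-Hochberg adjustment over all genes. Genotype was tested within each region (6 arrays), and region and interaction in a fit of all 12 arrays. Where no array of the lower group was above background, "at least" compares the higher group's mean with the mean of the lower values raised to the dimmest signal above background on each array. The scripts were tested on simulated data. The labels say that replicates are separate mice, and their number limits precision. Both arrays of a mouse come from 1 animal, and their deviations from the group means correlated at -0.09 to 0.39. Mouse numbers do not pair the genotypes.

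The members and lists were chosen with earlier results of these data known. Named genes are the 10 members, Psen2, up to 4 of each other list per comparison by smallest p, and 5 by each likeness measure. Xist was named after values were seen. Promoter sequences are from RefSeq (GRCm38.p6). Alternatives covered background correction, scaling, filters, probe choice, variance trend, slide, mouse or replicate block and each array left out in turn. A gene targeted by the floxed allele is not reported here.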

Additional observations from a re-analysis of the deposited data

How the results depend on the processing

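Of 935 values of single choroid plexus genes under an alternative, 900 kept their direction and their side of the threshold, 3 no longer passed, 7 newly passed and 25 changed sign. All 25 belonged to genotype comparisons in which no choroid plexus gene passed. In the region comparisons the count of choroid plexus genes that passed was 10 in DKO and 9 to 10 in Con mice when 1 array was left out. It was 6 in Con mice with slide as a block and 7 of 7 in DKO and 7 of 8 in Con mice when only genes above background on all arrays were kept. Blocking on the mouse (replicate block) left the counts at 10 in DKO and 9 in Con mice and at 0 for the interaction. Numbering replicates across genotypes as a block gave 0 choroid plexus genes in either region and 0 against 8 genes in all in basal forebrain.

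The sign changes were these, as DKO minus Con in log2. In basal forebrain, Folr1 had 0.07 with normexp background correction and 0.56 as the mean over its probes, and Kl had -0.17 as the mean over its probes. The second probes of Folr1 and Kl were above background on no basal forebrain array. With DKO mouse 2 alone Kcne2 had 0.09 and Kcnj13 0.20 in basal forebrain, and Kcne2 -0.23, Kcnj13 -0.08 and Kl -0.26 in cortex. With 1 array left out, the basal forebrain ranges were -2.67 to 0.03 for Ttr, -0.37 to 0.31 for Folr1, -0.32 to 0.06 for Kcnj13 and -0.07 to 0.33 for Col8a1. The cortex ranges were -0.02 to 0.49 for Kcne2 and -0.06 to 0.44 for Kl. For the interaction, Kl had -0.30 to 0.20 with 1 array left out and Folr1 had 0.17 as the mean over its probes.

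With 1 array left out, the choroid plexus genes that passed between genotypes numbered 0 to 1 in basal forebrain (Aqp1, without Con basal forebrain 2), 0 to 2 in cortex (Slc4a5 and Col8a1, without DKO cortex 3) and 0 to 1 for the interaction (Aqp1, without Con basal forebrain 2). With DKO mouse 2 alone, 1 passed in cortex (Col8a1). The counts of all genes moved more. In basal forebrain 8 genes passed between genotypes, against 5 with normexp, 18 with centring on the median, 3 without the filter on dim probes, 2 with signal required on all arrays, 13 with every probe on its own, 26 with all arrays in one fit, 0 with DKO mouse 2 alone and 0 to 24 with 1 array left out. In cortex 3 passed, against 5 with centring on the median, 1 without the filter, 0 with the mean over probes, 1 without the variance trend, 25 with all arrays in one fit, 27 on slide 2 alone, 7742 with DKO mouse 2 alone and 1 to 9759 with 1 array left out. Between regions 10337 genes passed in DKO and 13025 in Con mice, against 15991 and 19631 of all probes with every probe on its own, and 2884 in Con mice with slide as a block. For the interaction 0 passed, and 0 to 2591 with 1 array left out.

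The cause of these changes was not tested. In some of the settings fewer arrays, fewer genes or more probes entered the test. Signal over background limits Slc4a5 and Prr32 in basal forebrain to bounds. With DKO mouse 2 alone, or with slide 2 alone, the lone DKO array is assumed to vary like the other arrays.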
